A study of Mus musculus with 18 samples.

Results

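The ATF4 integrated stress response genes described here are 10 genes picked by symbol (Atf4, Atf5, Ddit3, Ddit4, Trib3, Chac1, Asns, Sesn2, Nupr1 and Cebpb) out of the 54354 rows of the deposited count table. They were followed in the 10 libraries of mice given serine-free diets. The SF_HFD group (serine-free high fat diet) and the SF_CD group (serine-free control diet) had 5 libraries each, from wild type mice, with colon as the tissue and tumor as the cell type. Both groups therefore lack dietary serine and differ by the fat content of the diet. The labels give no age, strain or tumor driver, and do not state if each library is its own animal. The extraction protocol names organoids, epithelial cultures that form hollow bodies in a gel, while the design text of the series describes sorted live cells, and the title marks the libraries as bulk RNA and GFP without saying what carries the label. RNA was selected for poly(A) tails and made into strand-specific libraries.

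The integrated stress response is set off when a kinase that senses amino acid shortage, misfolded protein, viral RNA or lack of heme phosphorylates the translation factor eIF2. Most translation then slows, while the Atf4 mRNA is translated more because of short upstream reading frames in its leader. ATF4 pairs with C/EBP proteins and binds a composite element in the promoters of genes for amino acid supply, redox balance and growth arrest. Because ATF4 is controlled largely at translation, the level of its mRNA is not a measure of its protein. Lack of an amino acid such as serine is a classical trigger through the kinase GCN2, encoded by Eif2ak4.

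All 10 symbols had counts in both serine-free groups and passed the filter on low counts. Ddit3 stands on 2 rows. The second row is a transcript model of 105 exonic bases inside the first and had 0 counts in all 10 libraries, so the first row is used. Library totals ran from 727610 to 12146933 counts in SF_HFD and from 499774 to 12841275 in SF_CD. The libraries SF_HFD 5, SF_CD 1 and SF_CD 5 had under 1000000 counts, and the SF_CD libraries 1 and 5 had 22.0% and 14.6% ribosomal RNA against 2.08% to 7.19% in the other 8. In the other 8 libraries of the series (labelled CD and HFD) Actb, Gapdh, Eef1a1 and Epcam were at 0, as were 5 of the 10 members. Row labels thus do not match the counts of those libraries, and they are not used here. Epcam, an epithelial marker, had at least 106 counts in every serine-free library.

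The composite element that ATF4 and C/EBP proteins recognise, searched as TGATGNAA on both strands, occurred in the RefSeq promoter (250 bases before to 50 after the start, GRCm38.p6) of 4 of the 10 members, Asns, Chac1, Nupr1 and Trib3. Over all 27025 genes with such a promoter it occurred in 4.51%. The stretches that hold it are shown because ATF4 with C/EBP proteins is known to bind this element. Each is printed on the strand of its gene with the element in capitals. The element reads forward in Asns and on the opposite strand in the other 3.
Asns, chr6:7693210-7693309, minus strand: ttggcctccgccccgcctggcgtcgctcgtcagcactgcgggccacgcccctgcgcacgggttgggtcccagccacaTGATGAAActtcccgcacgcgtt
Chac1, chr2:119351002-119351101, plus strand: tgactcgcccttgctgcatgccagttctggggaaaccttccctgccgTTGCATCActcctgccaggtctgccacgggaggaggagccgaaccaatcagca
Nupr1, chr7:126625528-126625627, minus strand: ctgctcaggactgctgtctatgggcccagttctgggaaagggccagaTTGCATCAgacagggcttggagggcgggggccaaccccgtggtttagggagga
Trib3, chr2:152344028-152344057, minus strand: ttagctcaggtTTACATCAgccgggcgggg

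Counted from the RefSeq start, with bases before it negative, the element lies at -23 to -16 in Asns, -193 to -186 in Chac1, -110 to -103 in Nupr1, and 15 to 22 in Trib3, where 30 bases are shown. The gene coordinates given further on are those of GENCODE M21, whose starts differ. By them the Trib3 and Chac1 elements lie before their genes and the Asns and Nupr1 elements inside theirs. The cAMP response element (TGACGTCA, in 2.03% of genes) and the endoplasmic reticulum stress element (in 0.137% of genes) matched no member in these windows. A match describes the letters of the window and does not show binding.

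Nupr1 was by far the most abundant member. Per kilobase of annotated exon it was at 627 CPM (counts per 1000000, scaled by the TMM method) in SF_HFD and 816 CPM in SF_CD, and it made up 80.1% of all member counts. Asns came next at 104 and 78.2 CPM per kilobase in SF_HFD and SF_CD. Atf4 (30.3 and 24.0), Ddit3 (17.5 and 34.4) and Ddit4 (16.4 and 17.9) formed a middle group, in which the order of Atf4 and Ddit3 differed between the groups. Cebpb (8.39 and 4.61), Trib3 (5.72 and 5.27), Chac1 (3.35 and 2.71) and Atf5 (2.76 and 1.51) were lower, and Sesn2 was lowest at 0.894 and 0.797 CPM per kilobase. Among neighbours in this order, Nupr1 and Asns had ranges over libraries that did not overlap in either group. In SF_HFD the ranges of Asns and Atf4 and of Atf5 and Sesn2 were also apart, and in SF_CD those of Ddit4 and Trib3. The ranges of all other neighbours overlapped.

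No member passed the test between SF_HFD and SF_CD (edgeR quasi-likelihood, Benjamini-Hochberg over all 11780 genes). Over all genes 0.323% were called, 18 higher (0.153%) and 20 lower (0.17%), so few calls would be found among any 10 genes. That total of 38 fell to 16, 19, 23 and 24 without the SF_HFD library 4, 2 or 5 or the SF_CD library 4, and reached 88 without the SF_CD library 2. The values of the groups overlapped for all 10 members, where 3.65% of all genes had groups that did not overlap. The members did not lean one way. The log2 fold change was positive for 5 and negative for 5, where 51.4% of all genes were positive, with a median of 0.14 against 0.02 over all genes. Its widest values were 1.01 for Cebpb, 0.92 for Atf5 and -0.95 for Ddit3, and an absolute value over 0.9 was reached by 19.6% of all genes. An unadjusted p under 0.05 was reached by 2 of the 10, Ddit3 and Cebpb, against 11.6% of all genes. In bulk RNA such as this, fewer cells of a type and less RNA per cell cannot be told apart.

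**Figure D1:**
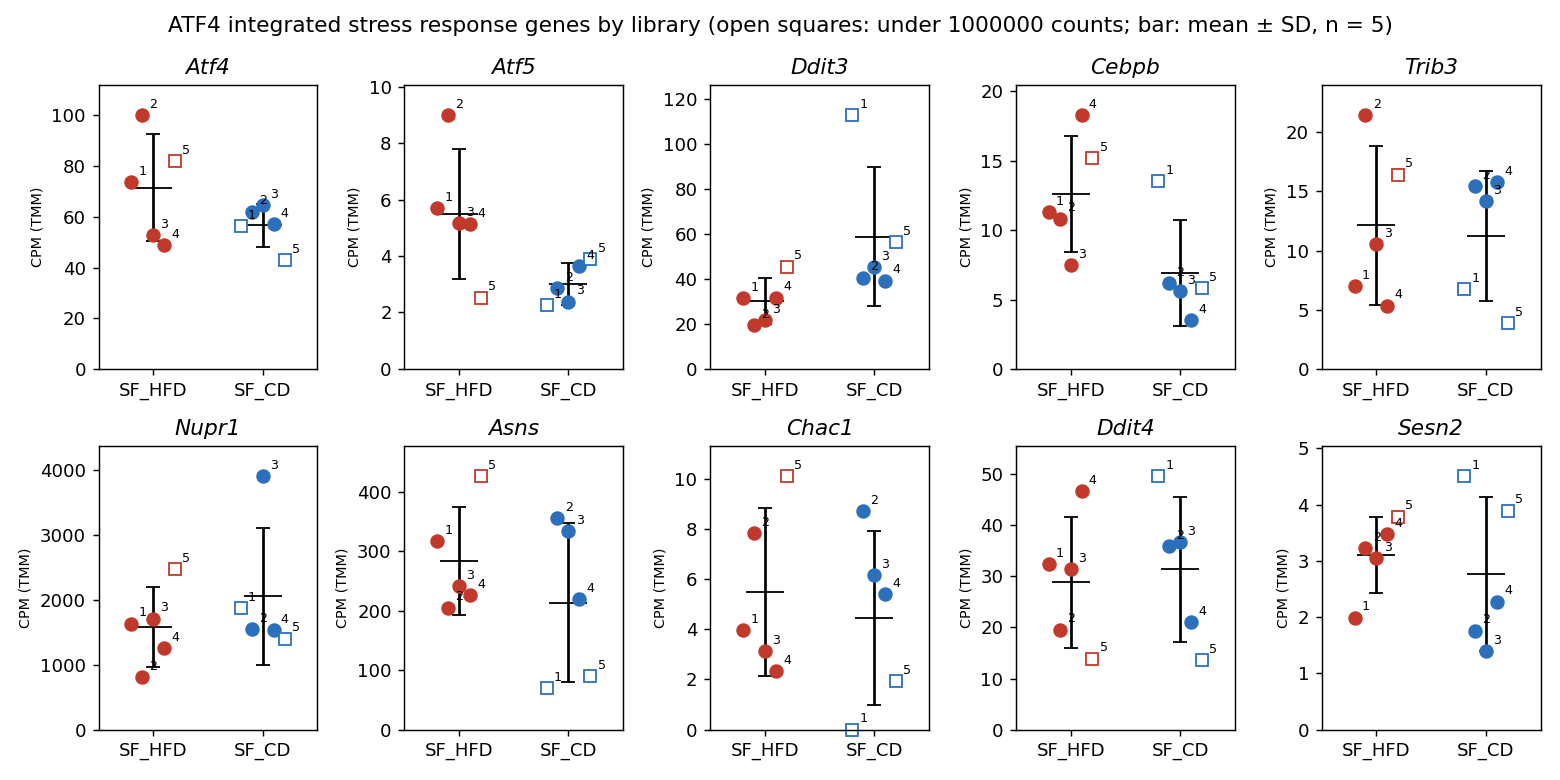
Each panel plots the TMM-scaled CPM of 1 member (vertical axis, from 0) in the 5 SF_HFD libraries (red, left) and the 5 SF_CD libraries (blue, right), with library numbers beside the points, open squares for libraries under 1000000 counts, and the mean ± SD. The groups overlap in every panel, and the Ddit3 panel shows the SF_CD library 1 at 113 CPM above all others.

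Among the transcription factors, Atf4 itself did not pass the test. It was at 73.7, 100.01, 52.7, 48.9 and 82.1 CPM in the SF_HFD libraries 1 to 5, against 56.4, 62.0, 64.7, 57.0 and 42.8 CPM in the SF_CD libraries 1 to 5. Of the SF_HFD libraries, 3 were above every SF_CD library and 0 were below them all. The SF_HFD mean was 71.5 ± 21.2 CPM against an SF_CD mean of 56.6 ± 8.45 CPM (SD, n = 5 each, as in all means below). The log2 fold change was 0.32 ± 0.32 (SE), with a 95% interval of -0.36 to 1.004 and an edgeR adjusted p of 0.746. The gene lies at mm10 chromosome 15, 80255184 to 80257541.

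Atf5, a bZIP factor related to ATF4 and linked to mitochondrial stress, was at 5.70, 8.99, 5.18, 5.13 and 2.53 CPM in SF_HFD, against 2.25, 2.86, 2.38, 3.64 and 3.89 CPM in SF_CD. Of the SF_HFD libraries, 4 were above every SF_CD library, and the exception was the shallow library 5, where Atf5 had 2 counts. The shallow SF_CD libraries 1 and 5 rest on 1 and 2 counts. The log2 fold change was 0.92 ± 0.49 (interval -0.12 to 1.96, edgeR adjusted p = 0.489). Atf5 (chromosome 7, 44812256 to 44816658) overlaps Nup62 and Il4i1 on the opposite strand, and whether the counting used strand is not given in the sources used here.

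Ddit3, which encodes CHOP, a factor that drives cell death when stress persists, went the other way. It was at 31.4, 19.6, 21.8, 31.7 and 45.5 CPM in SF_HFD, against 113, 40.5, 45.3, 39.2 and 56.5 CPM in SF_CD. The SF_HFD library 5 was the 1 library of its group that reached into the SF_CD range. Means were 29.999 ± 10.2 CPM in SF_HFD, against 58.8 ± 30.9 CPM in SF_CD. The log2 fold change was -0.95 ± 0.39 with an interval of -1.78 to -0.12, and the edgeR adjusted p was 0.356. Without the SF_CD library 1, the highest, the log2 fold change was -0.60 (edgeR adjusted p = 0.410). That library was the one with 22.0% ribosomal RNA and 12.1% of its counts from Malat1, a nuclear RNA, and it also held the highest level of Jun, at 230 CPM against 22.6 to 81.6 CPM in the other 9. The part of RNA quality in the Ddit3 level of this library was not tested. Ddit3 (chromosome 10, 127290774 to 127296288) overlaps Mars and Gm4189 on the opposite strand.

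Cebpb, a C/EBP protein that dimerises with ATF4 and also serves inflammatory responses, was at 11.3, 10.8, 7.49, 18.3 and 15.2 CPM in SF_HFD, against 13.5, 6.17, 5.60, 3.49 and 5.84 CPM in SF_CD. Every SF_HFD library was above 4 of the 5 SF_CD libraries, and the SF_CD library 1, with 6 Cebpb counts, was the exception. Means were 12.6 ± 4.17 CPM in SF_HFD, against 6.93 ± 3.84 CPM in SF_CD. The log2 fold change of 1.01 ± 0.46 (interval 0.03 to 1.996) had an edgeR adjusted p of 0.409. Cebpb (chromosome 2, 167688915 to 167690418) overlaps Tmem189 on the opposite strand.

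Trib3 and Nupr1 encode a pseudokinase that restrains ATF4 and CHOP and a small chromatin protein induced by stress. Trib3 (chromosome 2, 152337422 to 152344032) was at 6.97, 21.4, 10.5, 5.36 and 16.4 CPM in SF_HFD, against 6.76, 15.4, 14.2, 15.8 and 3.89 CPM in SF_CD. Each group spread widely, and the means of 12.1 ± 6.71 CPM and 11.2 ± 5.49 CPM in SF_HFD and SF_CD nearly coincided (log2 fold change -0.04, interval -1.06 to 0.97, edgeR adjusted p = 0.984). Nupr1 (chromosome 7, 126623249 to 126630861) was at 1632, 814, 1708, 1259 and 2468 CPM in SF_HFD, against 1871, 1543, 3902, 1534 and 1402 CPM in SF_CD. The SF_CD library 3 stood above the rest, and the log2 fold change of -0.38 (interval -1.16 to 0.40) was -0.0021 without it. The edgeR adjusted p of Nupr1 was 0.740 with all libraries.

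The metabolic targets were spread most widely within SF_CD. Asns (chromosome 6, 7675169 to 7693254), which makes asparagine from aspartate, was at 318, 206, 242, 227 and 427 CPM in SF_HFD, against 69.9, 356, 334, 219 and 89.6 CPM in SF_CD. The SF_CD libraries 1 and 5 were far below all others, while the SF_HFD library 5, nearly as shallow, was the highest of all 10. Means were 284 ± 90.6 CPM in SF_HFD, against 214 ± 133 CPM in SF_CD, and the log2 fold change was 0.39 ± 0.43 (interval -0.52 to 1.303, edgeR adjusted p = 0.782). Chac1 (chromosome 2, 119351229 to 119354381), which breaks down glutathione, was at 3.98, 7.84, 3.14, 2.34 and 10.1 CPM in SF_HFD, against 0, 8.70, 6.17, 5.39 and 1.95 CPM in SF_CD. It too was lowest in the SF_CD libraries 1 and 5, with 0 and 1 counts, where 3 counts would be 6.76 and 5.84 CPM, within the range of the deeper SF_CD libraries. Its log2 fold change was -0.07 (interval -1.33 to 1.19, edgeR adjusted p = 0.980).

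Ddit4 and Sesn2 encode proteins that restrain mTORC1, the kinase complex that couples amino acids to growth. Ddit4 (chromosome 10, 59949669 to 59951834) was at 32.3, 19.6, 31.4, 46.7 and 13.9 CPM in SF_HFD, against 49.6, 35.9, 36.7, 21.1 and 13.6 CPM in SF_CD. Both groups covered the same range, and the log2 fold change was -0.10 (interval -0.98 to 0.79, edgeR adjusted p = 0.957). Sesn2 (chromosome 4, 132492032 to 132510501), which overlaps Gm12981 on the same strand, was at 1.99, 3.23, 3.05, 3.47 and 3.79 CPM in SF_HFD, against 4.51, 1.76, 1.40, 2.28 and 3.89 CPM in SF_CD. Its values in the 3 shallow libraries rest on 2 or 3 counts each, and the log2 fold change was 0.42 (interval -0.75 to 1.58, edgeR adjusted p = 0.823).

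**Figure D2:**
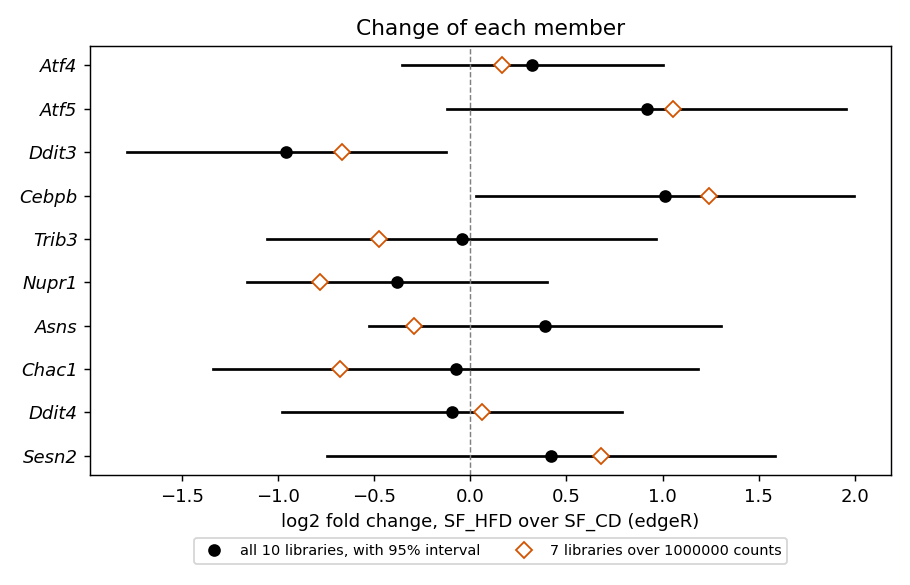
The horizontal axis gives the log2 fold change of each member, SF_HFD over SF_CD. Black points with lines are the edgeR estimate and its 95% interval over 10 libraries, and open diamonds are the estimate over the 7 libraries above 1000000 counts, where Cebpb and Atf5 are at 1.24 and 1.06, Ddit3 is at -0.67 and Asns changes sign to -0.29.

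Over the 7 libraries above 1000000 counts (4 SF_HFD, 3 SF_CD), 3 of the 10 members had groups without overlap, as had 18.6% of all genes. These were Atf5 (5.13 to 8.99 CPM in SF_HFD, 2.38 to 3.64 CPM in SF_CD), Ddit3 (19.6 to 31.7 CPM against 39.2 to 45.3 CPM) and Cebpb (7.49 to 18.3 CPM against 3.49 to 6.17 CPM). The same 3 had an unadjusted p under 0.05, a level reached by 16.5% of all genes, and their edgeR adjusted p were 0.245 for Atf5, 0.247 for Ddit3 and 0.201 for Cebpb. Called genes were 0.205% of all genes in this fit. Chac1 had a log2 fold change of -0.68 and Trib3 of -0.47 in these libraries, neither past the threshold.

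The members did not vary as 1 block across libraries. Of the 45 pairs, 23 had a positive Pearson r of log2 CPM over the 10 libraries and the median r was 0.01. With Benjamini-Hochberg adjustment over the 45 pairs, 0 passed 0.05 by either coefficient (permutation test, 100000 resamples). By Pearson r the pair closest to it was Chac1 and Asns, with r = 0.85 (permutation p = 0.00143, adjusted 0.0643) and Spearman rho = 0.75 (permutation p = 0.0177, adjusted 0.159). Without the 2 libraries farthest from the median of Chac1, the SF_CD libraries 1 and 5, the r was 0.53. Over the 7 deeper libraries, which also leave out the SF_HFD library 5, the highest for both genes, it was 0.31. This relation thus leans on the shallow libraries of both groups. Trib3 and Chac1 had r = 0.66 (permutation p = 0.0244, adjusted 0.220) and rho = 0.87 (permutation p = 0.00201, adjusted 0.0639), with r = 0.75 without the 2 farthest libraries and 0.87 over the 7 deeper ones. Atf4 and Trib3 had r = 0.73 (permutation p = 0.0162, adjusted 0.183) and rho = 0.81 (permutation p = 0.00697, adjusted 0.105), and r = 0.43 without the 2 farthest libraries. Among the 4 genes with the composite element in their promoter, Trib3 and Asns had r = 0.59 (permutation p = 0.0728, adjusted 0.410) and rho = 0.41 (permutation p = 0.247, adjusted 0.794), with r = 0.46 without the 2 farthest libraries and -0.07 over the 7 deeper ones. Nupr1 had r of 0.29 with Asns, 0.02 with Chac1 and 0.08 with Trib3.

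Atf5 and Ddit3 ran against each other, with r = -0.80 (permutation p = 0.00473, adjusted 0.102) and rho = -0.85 (permutation p = 0.00284, adjusted 0.0639). The r was -0.67 without the 2 farthest libraries and -0.90 over the 7 deeper libraries, where the diet groups did not overlap for either gene. With the mean of each diet group subtracted first, the r over the 10 libraries was -0.65. The r of -0.80 thus includes the difference between the groups. Atf5 and Nupr1 had r = -0.78 (permutation p = 0.00679, adjusted 0.102) and rho = -0.67 (permutation p = 0.0382, adjusted 0.286), with r = -0.69 without the 2 farthest libraries and -0.81 over the 7 deeper ones. Asns and Sesn2 had a negative r of -0.63 (permutation p = 0.0542, adjusted 0.348) with rho = -0.59 (permutation p = 0.0812, adjusted 0.522), with r = -0.28 without the 2 farthest libraries and -0.85 over the 7 deeper ones. The 2 libraries with the least Asns, the SF_CD libraries 1 and 5, had the most Sesn2, though on 2 counts each.

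**Figure D3:**
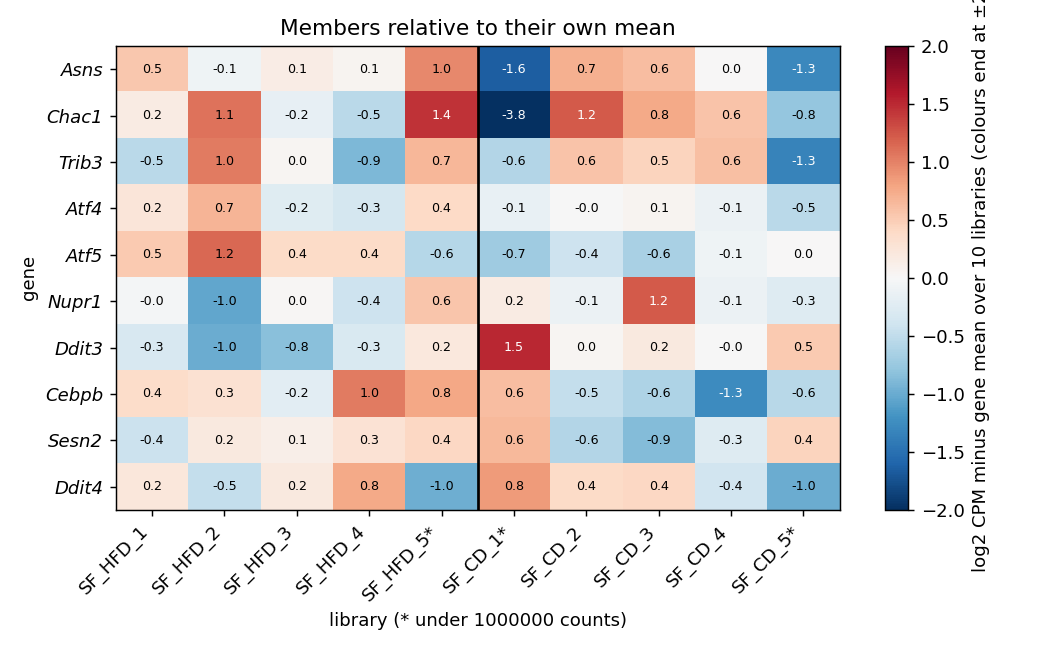
Rows are members and columns are libraries (SF_HFD left of the line, SF_CD right), and each cell gives the log2 CPM minus the mean of that gene over the 10 libraries. Chac1, Trib3 and Atf4 are high together in the SF_HFD libraries 2 and 5, and Chac1 and Trib3 are also high in the SF_CD library 2. Asns, Chac1 and Trib3 are low together in the SF_CD libraries 1 and 5. There Chac1 rests on 0 and 1 counts and Trib3 on 3 and 2 counts, and Trib3 is lower in the SF_HFD library 4 than in the SF_CD library 1.

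The SF_HFD library 2 had the highest Atf4, Atf5 and Trib3 of all 10 and the lowest Nupr1 and Ddit3. It also had the highest Eif2ak3, the kinase PERK of the endoplasmic reticulum, at 15.9 CPM against 3.70 to 5.05 CPM in the other SF_HFD libraries, and the highest Slc7a5, a leucine transporter, at 27.4 CPM against 5.16 to 8.60 CPM. Atf3, a stress-induced bZIP factor, was at 50.01 and 55.6 CPM in the SF_HFD libraries 2 and 5 and at 5.13 to 6.25 CPM in the other 3, against 8.70 to 15.8 CPM in SF_CD. Gdf15, a secreted stress factor, followed the same 2 libraries, with 26.7 and 24.0 CPM in the SF_HFD libraries 2 and 5 and 2.13 to 5.70 CPM in the other 3, against 0.987 to 11.3 CPM in SF_CD. The SF_HFD library 5 is among the shallow ones and the SF_HFD library 2 holds 3648783 counts and the most ribosomal RNA of its group (7.19%), and the part of these in the pattern was not tested.

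Among the genes whose log2 CPM was most like the mean standardised level of the 10 members, of 7307 genes searched over the 10 libraries, were Zfp1, Rufy1, Cant1 and Ctsc, with Pearson r of 0.94, 0.93, 0.93 and 0.92. Among those most like Atf4 alone were Krt23, Gorasp2, Pnpla2 and Btbd1, with r of 0.93, 0.91, 0.87 and 0.85. These are the highest of many values and are given as a description. The log2 fold changes of these 8 ran from 0.31 for Pnpla2 to 1.22 for Cant1, with no call.

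Beyond the members, 115 further genes of the pathway in 11 lists were tested, and 0 were called higher or lower by edgeR. An unadjusted p under 0.05 was reached by 8 of them (6.96%, against 11.6% of all genes). DESeq2 called 2 of the 115, Nfe2l2 and Hsp90b1, where it called 298 of all 11754 genes it tested. The log2 fold change was positive for 61 of the 115, with a median of 0.04. The 8 were Cebpd, Gars and Gdf15 with positive and Nfe2l2, Nars, Eprs, Hsp90b1 and Pdia4 with negative log2 fold changes.

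No gene of the switch itself was called. Of the 15 tested genes for the eIF2 kinases, the phosphatase subunits and eIF2B, which reloads eIF2, 9 had a positive log2 fold change, the range was -1.27 to 0.71 and the median was 0.11. Eif2s1, the phosphorylated subunit of eIF2, was at 433 ± 167 CPM in SF_HFD, against 388 ± 200 CPM in SF_CD (edgeR adjusted p = 0.931). Eif2ak4, the kinase GCN2, was at 0 to 5.07 CPM in SF_HFD, against 0 to 9.74 CPM in SF_CD. Among the bZIP partners, Nfe2l2, which encodes the antioxidant regulator NRF2, was at 98.3, 83.2, 105, 96.5 and 89.7 CPM in SF_HFD, against 239, 129, 201, 170 and 234 CPM in SF_CD. Every SF_HFD library was below every SF_CD library, where 3.65% of all genes had groups that did not overlap. The log2 fold change of Nfe2l2 was -1.03 ± 0.30 (edgeR adjusted p = 0.186, DESeq2 0.00852). Its highest values were in the SF_CD libraries 1 and 5, and without the 3 shallow libraries the change was -0.80 (edgeR adjusted p = 0.164). Cebpd, the C/EBP relative of Cebpb, was at 9.24 ± 5.49 CPM in SF_HFD, against 3.04 ± 1.96 CPM in SF_CD, with 1.55 as its log2 fold change (edgeR adjusted p = 0.312), the same sign as Cebpb.

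The amino acid branch showed no call either. Psat1 and Phgdh, which make serine, were at 158 ± 37.1 and 148 ± 52.5 CPM in SF_HFD and at 152 ± 68.6 and 154 ± 61.8 CPM in SF_CD, with log2 fold changes of 0.04 and -0.07. Like Asns, Psat1 was lowest in the SF_CD library 1, at 54.1 CPM. With the 3 shallow libraries left out, the log2 fold changes were -0.49 for Psat1 and -0.29 for Phgdh (edgeR adjusted p = 0.251 and 0.659). The cystine transporter Slc7a11 was highest in that library (728 CPM, with 103 to 277 CPM in SF_HFD and 53.0 to 354 CPM in the remaining SF_CD libraries). Of the 17 aminoacyl-tRNA synthetases, 9 had a positive log2 fold change and the median was 0.07. Nars, which charges the asparagine tRNA, was at 580 ± 92.4 CPM in SF_HFD, against 1201 ± 587 CPM in SF_CD (log2 fold change -1.05), and Eprs at 226 ± 21.9 CPM against 431 ± 216 CPM (-0.92). Gars was at 110 ± 32.3 CPM in SF_HFD, against 55.7 ± 27.6 CPM in SF_CD (log2 fold change 0.94). Every SF_HFD library was above every SF_CD library for Gars and below every one for Eprs. Over all genes, 3.65% had groups that did not overlap. The edgeR adjusted p were 0.241 for Nars, 0.312 for Eprs and 0.387 for Gars. The SF_CD libraries 1 and 5 were the highest for Nars, at 2056 and 1550 CPM, and for Eprs, at 762 and 537 CPM. Without the 3 shallow libraries the log2 fold changes were -0.43 for Nars, -0.29 for Eprs and 0.63 for Gars.

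In the endoplasmic reticulum list, 8 of 17 genes had a positive log2 fold change and the median was -0.18. Hsp90b1, the chaperone GRP94, was at 372, 490, 493, 536 and 429 CPM in SF_HFD, against 1289, 847, 719, 808 and 1491 CPM in SF_CD. The groups did not overlap, as in 3.65% of all genes. The log2 fold change of Hsp90b1 was -1.15 ± 0.30 with an edgeR adjusted p of 0.139 (DESeq2 0.00861). The next most abundant, Hspa5, the chaperone BiP, was at 516 ± 79.6 CPM in SF_HFD, against 589 ± 106 CPM in SF_CD (log2 fold change -0.19). Summed over the 17 genes, SF_HFD libraries were at 1853 to 2079 CPM and SF_CD libraries at 2601 to 3559 CPM, without overlap. In all other pathway lists the summed ranges of the groups overlapped. Hsp90b1 and Hspa5 are the most abundant genes in the sum over the 17 genes, and the groups overlapped for Hspa5. Ern1 and Syvn1, a sensor and a degradation ligase of the same compartment, had positive log2 fold changes of 1.1715 and 1.23.

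**Figure D4:**
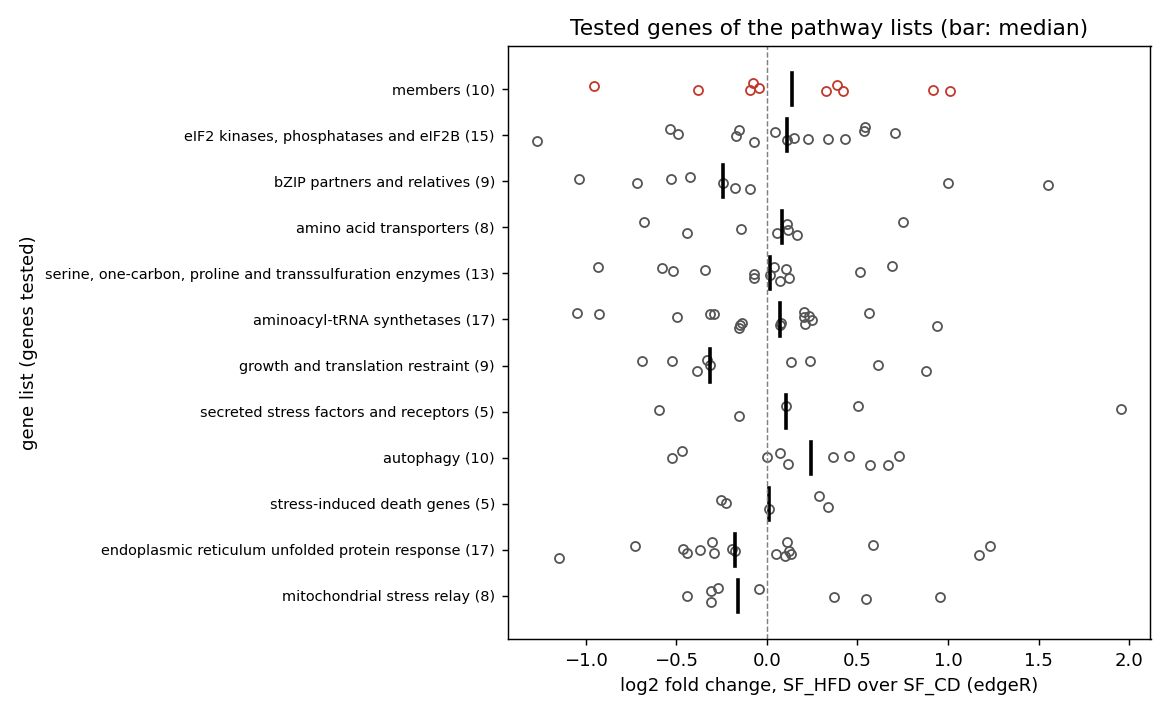
Each circle is 1 tested gene, placed by its log2 fold change (SF_HFD over SF_CD, horizontal axis) in the row of its list, with the number of genes tested and the median as a bar. The medians of the 11 lists lie between -0.31 and 0.24 and that of the members at 0.14, and each list has genes on both sides of 0.

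The remaining lists gave no call by edgeR. Autophagy had the highest median, 0.24, with Map1lc3b at 509 ± 106 CPM in SF_HFD, against 468 ± 139 CPM in SF_CD. Genes that restrain growth and translation had the lowest, -0.31, and their most abundant member Eif4ebp1, a translation repressor that ATF4 induces, was at 135 to 234 CPM in SF_HFD, against 13.5 and 48.7 CPM in the SF_CD libraries 1 and 5 and 109 to 230 CPM in the remaining SF_CD libraries. Those SF_CD libraries 1 and 5 were also the lowest in Asns, in the keratin Krt19 (902 and 779 CPM) and in the autophagy gene Gabarapl2 (72.1 and 97.4 CPM). In Nars, Eprs, Nfe2l2 and Hsp90b1 they were the highest. The part of their depth and RNA quality in these levels was not tested. Genes of the mitochondrial relay had a median of -0.16 and the death genes one of 0.01.

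Of the markers of other cell types, 3 of smooth muscle and 1 of immune cells passed the test, as did 0.323% of all genes. All 10 epithelial markers were tested, 8 with a positive log2 fold change and 0 called. An unadjusted p under 0.05 by edgeR was reached by 5 (Epcam, Krt8, Cldn3, Cldn7 and Elf3), against 11.6% of all genes. Of these 5, Elf3 had a negative log2 fold change. The groups did not overlap for Krt8 and Cldn3, as in 3.65% of all genes, and DESeq2 called Krt8 (adjusted p = 0.0443). The 10 markers summed to 4700 to 7344 CPM in SF_HFD, against 2372 to 5201 CPM in SF_CD. Of 12 smooth muscle and fibroblast markers 10 were tested, 9 with a positive log2 fold change and 3 called higher (Acta2, Myl9 and Actg2). An unadjusted p under 0.05 by edgeR was reached by 8 of the 10, against 11.6% of all genes. The median log2 fold change of the 10 was 2.57. The list summed to 246 to 389 CPM in SF_HFD, against 31.1 to 167 CPM in SF_CD. Of 9 macrophage and lymphocyte markers 3 were tested and Fcer1g was called lower. It rests on few counts, at 0 to 0.0755 CPM in SF_HFD. In the SF_CD libraries 1 and 5 it was at 2.25 and 5.84 CPM, where 3 counts would be 6.76 and 5.84 CPM. The log2 fold changes of the other tested markers were -3.39 for Lyz2 and -0.20 for Cd68 (edgeR adjusted p = 0.0760 and 0.898). The list summed to 7.37 to 41.7 CPM in SF_HFD, against 33.8 to 117 CPM in SF_CD, and Cd3e was at 0 throughout. Without the 3 shallow libraries Myl9 was still called, while the edgeR adjusted p was 0.0701 for Acta2, 0.159 for Actg2 and 0.0845 for Fcer1g at log2 fold changes of 4.08, 4.25 and -5.42. The Fcer1g call was also lost without the SF_HFD library 1 or 4 (edgeR adjusted p = 0.0524 and 0.0854), and the Actg2 call without the SF_HFD library 2 or 5 or the SF_CD library 1 (0.0564, 0.0532 and 0.0582). Endothelial markers summed to 4.15 to 18.9 CPM in SF_HFD, against 6.53 to 31.6 CPM in SF_CD. The part of other cells in the values of the members was not tested.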

How the data were processed

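The authors deposited 1 table of whole-number counts per gene, estimated with Salmon 1.3.0 on mm10, per the submitters' processing notes. The labels give no annotation release, filter or strand setting. Reads shared by genes are split by an estimate in Salmon, so counts of overlapping genes are uncertain. No columns were identical or left unmapped. The row identifiers were looked up in GENCODE M21 (94.7% matched) for coordinates and merged exon lengths, and the promoter sequences are RefSeq's (GRCm38.p6), with all 10 members matched.

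The fit used the 5 SF_HFD and 5 SF_CD libraries with edgeR 4.0.16 in R 4.3.3 (TMM, filterByExpr, robust quasi-likelihood test, Benjamini-Hochberg, threshold 0.05), and was checked on simulated counts. Alternatives used limma 3.58.1 and DESeq2 1.42.0. Standard errors came from the log2 fold change and F, and intervals from the t distribution of the fit. Likeness and correlations used log2 CPM with a prior count of 2. A floor is 3 counts and covers counting error. The labels do not say that libraries are separate animals, so a p-value here reflects library-to-library spread, possibly technical. Members and lists were chosen with earlier results of these data known. From each list the text drew on every called gene or, with none, the 2 most abundant and the 2 of largest absolute log2 fold change, and the likeness search took the 5 genes of highest Pearson r, of which some are not reported here. Atf3, Eif2ak4, Pdia3, Pdia4, Calr, Cldn3, Cldn7, Elf3 and the values by library of Jun, Slc7a11 and Eif4ebp1 were picked after their values were seen.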

Additional observations from a re-analysis of the deposited data

Results flagged for a closer look

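Among 118 groups of 5 libraries (59 genes in 2 diets), 18 held 1 library far from the other 4, by a gap over 0.71 of the range of its group. For normally distributed values chance flags about 1 in 20 such groups, and the rate for CPM values such as these was not measured. The 59 genes are the members and the genes drawn from each list, in part for a large log2 fold change. A single far library can produce such a change, so 18 of 118 cannot be set against that rate. Of the 18, 11 lay in SF_CD and 8 of these in the SF_CD library 1, which had 499774 counts and 22.0% ribosomal RNA. The part of its depth and RNA quality was not tested.

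Among the members, Ddit3 was at 113 CPM in the SF_CD library 1, against 39.2 to 56.5 CPM in the other 4 of its group. Cebpb was at 13.5 CPM in the same library, against 3.49 to 6.17 CPM. Nupr1 was at 3902 CPM in the SF_CD library 3, against 1402 to 1871 CPM.

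In other genes the SF_CD library 1 was also the highest of its group for Jun at 230 CPM, Deptor at 110 CPM, Vegfa at 178 CPM, Gdf15 at 11.3 CPM, Atg16l1 at 27.1 CPM and the endothelial marker Pecam1 at 31.6 CPM. The SF_CD library 5 was apart for Impact at 27.3 CPM and for Fcer1g at 5.84 CPM. In SF_HFD, library 2 was apart for Eif2ak3 at 15.9 CPM, Slc7a5 at 27.4 CPM and Gars at 167 CPM, against 3.70 to 5.05, 5.16 to 8.60 and 91.1 to 103 CPM in the others. The SF_HFD library 5 was apart for Psat1 at 222 CPM, Tnfrsf10b at 22.7 CPM and Egfl7 at 18.9 CPM. Fcer1g was at 0.0755 CPM in the SF_HFD library 4 and at 0 in the other 4.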

How the results depend on the processing

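No member passed the threshold in any of the 18 other settings. The count of genes called was 38 and became 298 with DESeq2, 173 with limma-voom with sample quality weights, which changes both the test and the weight of each library, 78 with no filter, 22 with the replicate block, and 16 to 88 when 1 library was left out. Same-numbered libraries did not deviate together (correlations from -0.21 to 0.14, 1 of 5 pairs above 0.1), so the numbers are not taken as pairs, and the block brought no call among the members. Signs were kept in all settings for Atf5, Ddit3, Sesn2, Nupr1 and Cebpb. With limma-voom and those weights the log2 fold changes of Atf4, Ddit4 and Asns reversed to -0.0517, 0.0181 and -0.0708, and those of Chac1 and Trib3 were -0.99 and -0.71 (limma adjusted p = 0.169 and 0.268). Without the libraries under 1000000 counts those of Ddit4 and Asns reversed to 0.0630 and -0.29. Leaving out 1 library gave -0.35 to 0.0859 for Ddit4, -0.39 to 0.16 for Trib3 and -0.32 to 0.25 for Chac1. The cause was not tested. Depth limits Chac1, Sesn2 and Atf5, which had at most 8 counts in each of the 3 shallow libraries. It also limits Trib3, with 3 and 2 counts in the SF_CD libraries 1 and 5.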
